A study of Bos taurus with 12 samples.

Results

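The genes described here are transcription factors that set up and run the skeletal muscle programme, measured while cells taken from bovine muscle were made to form fat. They were chosen by name: every row of the mRNA table whose gene name is MYOD1, MYF5, MYF6, MYOG, PAX7, PAX3, MEF2C or SIX4. This gave 7 of the 33714 rows, 1 row for each of 7 genes, and PAX7 was not analysed here. Of these 7 genes, 6 had a mean of at least 0.1 FPKM (fragments per kilobase of transcript, scaled to the mapped fragments of the library) over the libraries and were tested. PAX3 lay below that level.

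The cells were preadipocytes of newborn Qinchuan cattle (Bos taurus), obtained by digesting longissimus dorsi muscle, which the labels call Intramuscular adipocytes of the tissue Intramuscular fat. All 4 groups were grown in the same serum medium until nearly confluent. The 0 d group was collected before induction, and the 3 d, 6 d and 9 d groups after induction with dexamethasone (DEX), IBMX and insulin, followed by insulin alone. No uninduced group was collected on a later day, so induction and time in culture cannot be told apart. Each group held 3 libraries, 12 in all, with long RNA and small RNA measured in each. For the long RNA libraries, the labels name poly(A) selection where the methods name depletion of ribosomal RNA. The methods call the replicates biological, but neither source says whether those of a day came from different animals, so the p-values measure only the spread between these samples, which may be technical. The paper's discussion describes the cells of the different days as the same batch.

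Summed FPKM ranged from 1221194 to 1371794 per library, and the table holds no read counts, so the number of fragments behind a single FPKM value is not given. Raw miRNA reads ranged from 1851720 to 5636256 per library. An mRNA was called when its log2 fold change was beyond 1 in either direction and its adjusted p was below 0.05 (limma, Benjamini-Hochberg over the 15402 rows tested). Fold changes were taken on log2(FPKM + 0.1), a scale that understates the change of genes near 0. The comparisons of 3 d, 6 d and 9 d with 0 d share the 0 d libraries.

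In developing and regenerating muscle, PAX3 and PAX7 mark progenitor cells, and SIX4 acts upstream of the myogenic regulatory factors. MYF5 and MYOD1 commit cells to the muscle lineage as myoblasts, and MYOG, MYF6 and the MEF2 proteins then drive the genes of differentiated fibres. Fat cells within muscle arise mainly from fibro-adipogenic progenitors, a mesenchymal population distinct from the muscle lineage.

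Against this background, the myogenic regulatory factors were present in every library, and each had its highest day mean at 0 d, although MYF5 and MYF6 did not pass the test between 0 d and 3 d. MYOD1 and MYOG fell within the first interval, from 0 d to 3 d, and were called lower than at 0 d on all 3 later days, and MYF5 was called lower at 9 d. SIX4 and MEF2C, factors also active outside muscle, passed the test in none of the 6 comparisons. Replicates of MEF2C were far apart, as were those of SIX4 at 3 d and 6 d but not at 0 d or 9 d. At 3 d, 2 of the 6 tested genes were called, both lower, where 23.3% of all tested mRNAs were called, 15.2% lower and 8.06% higher. At 6 d the count was 3 of 6, all lower, where 11.4% of all tested mRNAs were called, 7.97% lower and 3.39% higher. At 9 d it was again 3 of 6, all lower, where 10.9% of all tested mRNAs were called, 7.47% lower and 3.41% higher. The 6 d count was 2 with a pseudocount of 1, without a filter on low values, after rescaling, or fitting only the 6 libraries compared. Leaving out single libraries moved the 6 d count between 2 and 4. The 3 d count rose to 3 without 3 d replicate 2. Without 0 d replicate 1, or fitting only the 6 libraries compared, the 9 d count was 4. The median log2 fold change of the 6 genes was -0.63 at 3 d, -1.03 at 6 d and -1.44 at 9 d, against -0.06, -0.15 and -0.19 for the 15402 mRNAs together.

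Between the later days, 1 of the 6 genes was called in 6 d against 3 d, where 19.1% of all tested mRNAs were called, and 2 of 6 in 9 d against 3 d, where 20.5% were called. None of the 6 was called by limma in 9 d against 6 d, where 4.43% of all tested mRNAs were called, and 1 of the 6 had an unadjusted p under 0.05 there. Without 3 d replicate 1 the count in 6 d against 3 d was 2. The count in 9 d against 3 d was 1 without 3 d replicate 2, without 3 d replicate 3 or without 9 d replicate 1, and 0 without 9 d replicate 2. It was also 1 with a pseudocount of 1, and 0 after rescaling the libraries by their median ratio.

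**Figure D1:**
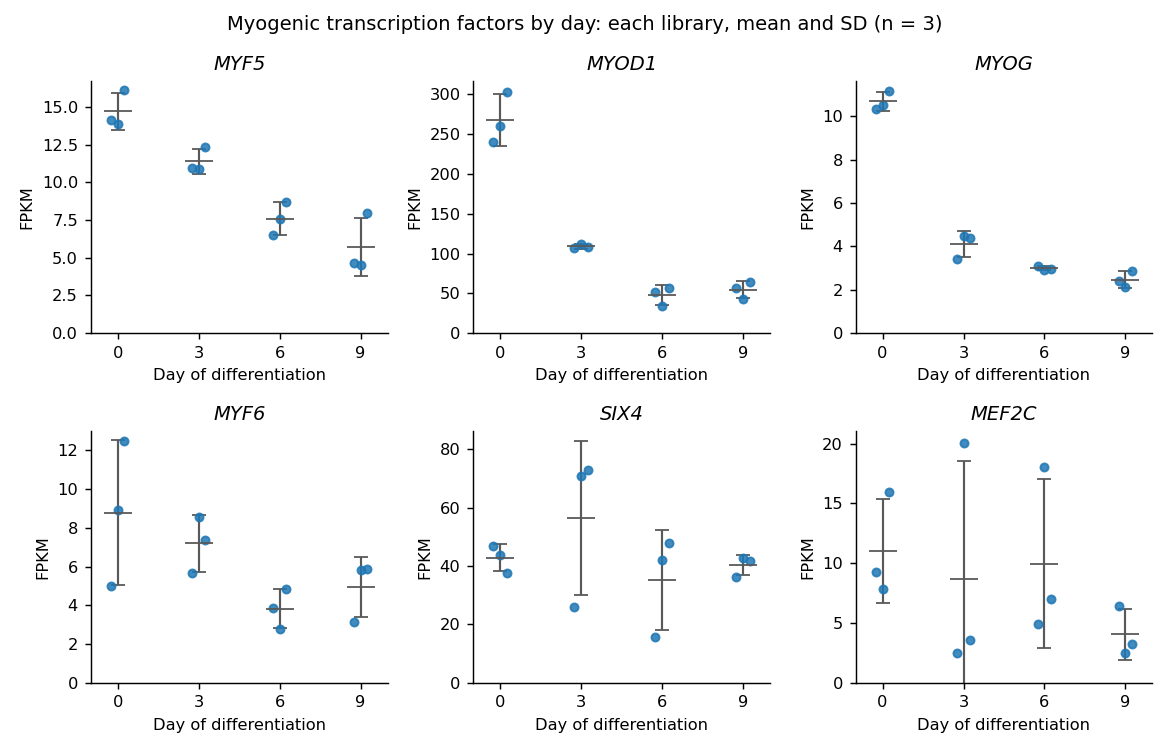
FPKM of each gene (vertical axes, from 0) by day of differentiation (horizontal axes), with a point for each library and the mean and SD of 3 libraries. MYOD1 and MYOG were lower in every later library than in every 0 d library, while replicates lay far apart for MEF2C, and for SIX4 at 3 d and 6 d; the SD bar of MEF2C at 3 d reaches below 0 and is not drawn there.

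MYOD1, the factor that can turn other cell types into myoblasts, was the most abundant of the group, at place 1334 of 15402 tested mRNAs by mean level. Its level was 239.8, 260.2 and 303.4 FPKM in the 0 d libraries, 107.3, 112.5 and 107.8 FPKM at 3 d, 51.9, 34.0 and 57.3 FPKM at 6 d, and 56.6, 43.2 and 63.8 FPKM at 9 d. The 0 d libraries lay above all others and the 3 d libraries above all of 6 d and 9 d, whose ranges overlapped. In order of day, the means were 267.8 ± 32.5, 109.2 ± 2.88, 47.7 ± 12.2 and 54.6 ± 10.5 FPKM (SD, n = 3). MYOD1 fell by 1.29 on the log2 scale at 3 d (SE 0.20, limma adjusted p = 3.12e-04), fell by 2.51 at 6 d (adjusted p = 6.04e-06) and fell by 2.31 at 9 d (adjusted p = 1.31e-05). In FPKM, the 0 d mean was 2.45 times that of 3 d, 5.61 times that of 6 d and 4.91 times that of 9 d.

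From 3 d onward MYOD1 also fell by 1.23 to 6 d (adjusted p = 5.10e-04) and fell by 1.02 to 9 d (adjusted p = 0.00163), on the log2 scale. In order of level the days were 0 d, 3 d, 9 d and 6 d, and the lowest pair did not differ beyond their spread (log2 fold change 0.21, adjusted p = 0.528). Without 6 d replicate 2, the sign for that pair turned (-0.02). The 9 d against 3 d call was lost without 3 d replicate 2 (-1.0) and without 9 d replicate 2 (-0.86), and after rescaling the libraries by their median ratio (-0.89). The calls against 0 d held in all 20 alternatives.

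MYF5, the other determination factor and the first of the family to appear in the embryo, was lower in level, at place 6088 with a mean of 9.85 FPKM over the 12 libraries. It measured 14.2, 13.9 and 16.1 FPKM at 0 d, 10.9, 10.9 and 12.3 FPKM at 3 d, 6.50, 7.57 and 8.68 FPKM at 6 d, and 4.64, 4.52 and 7.95 FPKM at 9 d. Each day lay wholly below the day before it, except that 9 d replicate 3 was within the range of the 6 d libraries. The means were 14.7 ± 1.21, 11.4 ± 0.806, 7.58 ± 1.09 and 5.70 ± 1.95 FPKM in order of day (SD, n = 3), the largest step being 3.81 FPKM.

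The decrease of MYF5 passed both thresholds only at 9 d among the comparisons with 0 d, where it fell by 1.4 on the log2 scale (SE 0.20, adjusted p = 3.96e-04). Its log2 fold change was -0.37 at 3 d (adjusted p = 0.152) and -0.95 at 6 d, where the adjusted p of 0.00404 passed and the fold did not. Neighbouring days differed by -0.59 from 3 d to 6 d (adjusted p = 0.0322) and by -0.44 from 6 d to 9 d (adjusted p = 0.156), neither of them called. MYF5 fell by 1.03 from 3 d to 9 d (adjusted p = 0.00158). That call was lost without 3 d replicate 3 (-0.98), 9 d replicate 1 (-0.91) or 9 d replicate 2 (-0.89), after rescaling (-0.91) and with a pseudocount of 1 (-0.92), and 6 d against 0 d was called without 6 d replicate 3 (-1.06).

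MYOG, the factor that switches myoblasts into differentiation and fusion, was scarcer than MYOD1 at every day. The libraries held 10.34, 10.54 and 11.17 FPKM at 0 d, 3.43, 4.48 and 4.40 FPKM at 3 d, 3.10, 2.92 and 2.96 FPKM at 6 d, and 2.42, 2.11 and 2.88 FPKM at 9 d. No pair of days overlapped, and every later library lay below every earlier one. Its means were 10.7 ± 0.433, 4.10 ± 0.584, 2.99 ± 0.0945 and 2.47 ± 0.387 FPKM over the 4 days (SD, n = 3). MYOG fell by 1.37 on the log2 scale at 3 d (SE 0.13, adjusted p = 8.87e-06), fell by 1.80 at 6 d (adjusted p = 3.00e-06) and fell by 2.08 at 9 d (adjusted p = 1.44e-06), calls that held in all 20 alternatives.

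After 3 d the further differences of MYOG were smaller than the fold threshold. Its log2 fold change was -0.43 from 3 d to 6 d (adjusted p = 0.0176), -0.71 from 3 d to 9 d (adjusted p = 0.00104) and -0.28 from 6 d to 9 d (adjusted p = 0.169). The largest step in the day means of MYOG was 6.58 FPKM and that of MYOD1 158.6 FPKM, both from 0 d to 3 d.

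MYF6, also called MRF4, is the family member that predominates in mature fibres. Its levels were 4.98, 8.92 and 12.5 FPKM at 0 d, 5.67, 8.57 and 7.36 FPKM at 3 d, 3.87, 2.79 and 4.84 FPKM at 6 d, and 3.13, 5.81 and 5.89 FPKM at 9 d. The 0 d replicates differed widely, 0 d replicate 1 lay only just above the highest 6 d library, and the 9 d libraries overlapped those of every other day. Day by day, the means were 8.79 ± 3.74, 7.20 ± 1.46, 3.83 ± 1.03 and 4.94 ± 1.57 FPKM (SD, n = 3). MYF6 was called at 6 d alone, where it fell by 1.11 on the log2 scale (SE 0.36, adjusted p = 0.0372, 0.00955 to 0.124 over the alternatives).

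This call of MYF6 was lost without any of 5 libraries, namely 0 d replicate 2 (-1.06), 0 d replicate 3 (-0.82), 3 d replicate 3 (-1.11), 6 d replicate 1 (-1.14) and 6 d replicate 2 (-0.91), and also under 4 other settings of the fit. The other log2 fold changes of MYF6 against 0 d were -0.21 at 3 d (adjusted p = 0.665) and -0.78 at 9 d (adjusted p = 0.124). Without 0 d replicate 1 the 9 d value was -1.13 and was called, and without 0 d replicate 3 the 3 d value was 0.09. MYF6 did not differ between neighbouring days in the order of its levels.

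Summed over the 4 myogenic regulatory factors, the libraries held 269.2, 293.5 and 343.2 FPKM at 0 d, 127.4, 136.5 and 131.9 FPKM at 3 d, 65.3, 47.2 and 73.7 FPKM at 6 d, and 66.8, 55.7 and 80.5 FPKM at 9 d. MYOD1 made up most of this sum in each library. Its share of the sum ranged between 88.4% and 89.0% at 0 d, between 81.7% and 84.3% at 3 d, between 71.9% and 79.4% at 6 d, and between 77.6% and 84.7% at 9 d. In bulk RNA, fewer cells of a type and less RNA per cell cannot be told apart.

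Of the upstream factors, PAX3, which directs muscle progenitors of the embryo, was near 0 throughout. It was 0.06, 0.05 and 0.05 FPKM at 0 d, 0, 0.01 and 0.02 FPKM at 3 d, 0.05, 0.04 and 0.02 FPKM at 6 d, and 0.03, 0 and 0 FPKM at 9 d. These values are too low for a fold change.

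SIX4, a homeodomain factor that acts with EYA proteins on the promoters of myogenic genes, was the second most abundant of the group, with a mean of 43.7 FPKM. It was 47.0, 43.7 and 37.8 FPKM at 0 d, 25.9, 70.7 and 72.9 FPKM at 3 d, 15.8, 41.9 and 47.9 FPKM at 6 d, and 36.3, 42.8 and 41.8 FPKM at 9 d. Replicate 1 was the low library at both 3 d and 6 d, and all 4 days overlapped. The means were 42.8 ± 4.67, 56.5 ± 26.5, 35.2 ± 17.0 and 40.3 ± 3.50 FPKM in order of day (SD, n = 3), giving the order 3 d, 0 d, 9 d and 6 d with no neighbours that differed.

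The log2 fold changes of SIX4 against 0 d were 0.26 at 3 d (SE 0.46, adjusted p = 0.67), -0.43 at 6 d (adjusted p = 0.526) and -0.09 at 9 d (adjusted p = 0.907). The sign at 9 d turned after rescaling (0.12). Without 3 d replicate 1, SIX4 was called lower at 6 d than at 3 d (-1.18, against -0.69 with all libraries, adjusted p = 0.243). Without 6 d replicate 1, the sign turned in 6 d against 0 d (0.07) and in 9 d against 6 d (-0.16, against 0.34 with all libraries).

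MEF2C, a MADS-box factor that binds together with the myogenic regulatory factors, varied most between replicates. Its libraries held 9.24, 7.87 and 15.96 FPKM at 0 d, 2.46, 20.02 and 3.54 FPKM at 3 d, 4.90, 18.0 and 7.01 FPKM at 6 d, and 6.42, 2.47 and 3.23 FPKM at 9 d. Replicate 2 was far above the others at 3 d and 6 d and lowest at 0 d and 9 d, and only 0 d and 9 d did not overlap. MEF2C had day means of 11.02 ± 4.33, 8.67 ± 9.84, 9.97 ± 7.04 and 4.04 ± 2.1 FPKM (SD, n = 3). None of its comparisons passed limma: the log2 fold change was -0.89 at 3 d (SE 0.76, adjusted p = 0.361), -0.30 at 6 d (adjusted p = 0.805) and -1.47 at 9 d (adjusted p = 0.163, 0.0457 to 0.353 over the alternatives).

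Leaving out 3 d replicate 2 made MEF2C lower at 3 d than at 0 d by the test (-1.80) and turned the sign of 9 d against 3 d (0.32, against -0.58 with all libraries). In 6 d against 0 d the log2 fold change was 0.10 without 6 d replicate 1 and 0.00 without 0 d replicate 3. A fit of only the 6 libraries of 0 d and 9 d called MEF2C lower at 9 d (-1.47).

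The genes thus differed in how closely replicates matched. The SD of log2(FPKM + 0.1) within days was 0.15 for MYOG, 0.26 for MYOD1, 0.26 for MYF5, 0.48 for MYF6, 0.62 for SIX4 and 1.03 for MEF2C, and its median over all tested mRNAs was 0.21. Only 3.6% of tested mRNAs varied more between replicates than MEF2C and 11.9% more than SIX4.

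**Figure D2:**
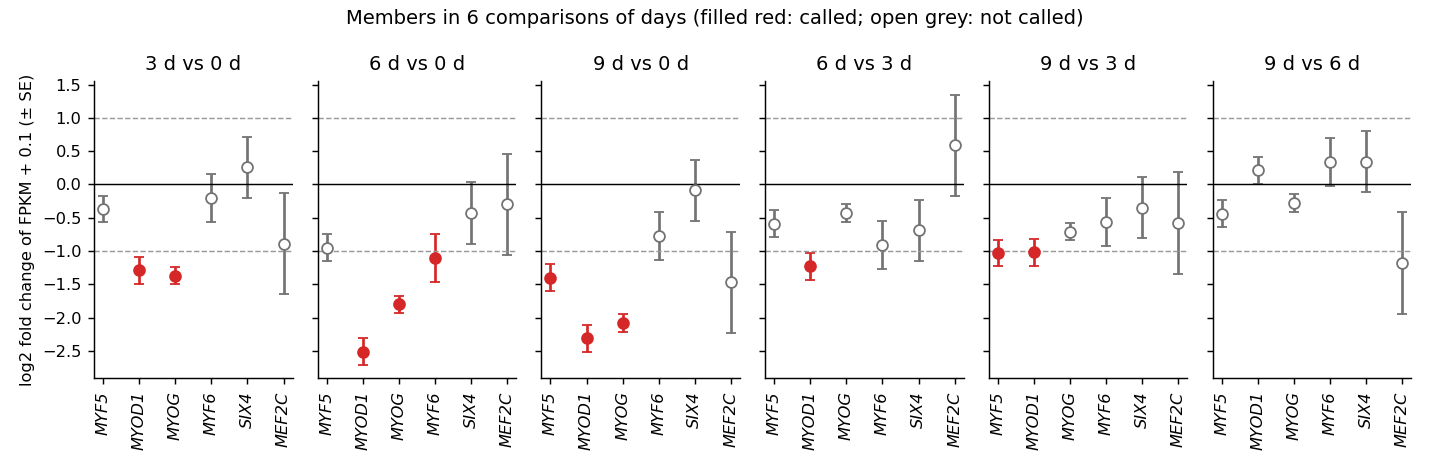
Log2 fold change of FPKM + 0.1 (vertical axis) of the 6 tested genes (horizontal axes) in each of the 6 comparisons of days, with bars of 1 SE from limma, filled points for called genes, open points for the others and dashed lines at the fold threshold. Against 0 d, MYOD1 reached -2.51 at 6 d and MYOG -2.08 at 9 d, and the SE of MEF2C, 0.76, was the largest of the 6 genes.

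With libraries rescaled by the median ratio, the all-mRNA median of the log2 fold change against 0 d was higher by 0.07, 0.16 and 0.19 for 3 d, 6 d and 9 d, and that of 9 d against 3 d by 0.12. Among all tested mRNAs, 522 were called higher and 1227 lower at 6 d as deposited, and 647 higher and 945 lower after rescaling. At 9 d these counts were 525 higher and 1150 lower as deposited, and 687 and 785 after rescaling. MYOD1 and MYOG were called lower on all 3 days on both scales.

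The likeness of other mRNAs was measured by Pearson's r of log2(FPKM + 0.1) over the 12 libraries, among 11330 other mRNAs with a mean of at least 1 FPKM. This is a description: the libraries share their days, so any mRNA with a like course over days has a high r. Between the genes of the group, r was 0.9483 for MYOD1 and MYOG, 0.8704 for MYF5 and MYOG, 0.8625 for MYOD1 and MYF5 and 0.7502 for MYOD1 and MYF6. MYOD1 had an r of 0.2794 with MEF2C and 0.2119 with SIX4. For MYOG, r was 0.6379 with MYF6, 0.4558 with MEF2C and 0.1919 with SIX4. For MYF5, it was 0.3676 with MEF2C and 0.3107 with SIX4. MYF5 and MYF6 are neighbours in RefSeq's annotation of ARS-UCD2.0, with 0 protein-coding genes between them, and their r was 0.679.

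Closest to MYOD1 were PDLIM3 (r = 0.9837), RIMS1 (0.9829), OTOG (0.9799), KLHL41 (0.9783) and ACTC1 (0.978). ACTC1, a sarcomeric actin, had day means of 911.2, 505.6, 244.5 and 233.3 FPKM, and KLHL41, a sarcomere-associated protein, had 76.1, 42.1, 22.2 and 22.6 FPKM. MYOG was followed most closely by MYLPF (r = 0.9911), a fast myosin light chain with day means of 76.2, 34.2, 28.0 and 26.6 FPKM, then by KREMEN1 (0.9893), KCNJ2 (0.989), ERBB3 (0.9852) and NPC1 (0.9846). For MYF5 the nearest were a row shared by AIFM2 and TYSND1 (r = 0.9712), ALG1 (0.9666), LZTS3 (0.959), ADORA1 (0.9586) and CGRRF1 (0.9572). ALG1, an enzyme of protein glycosylation, had day means of 180, 147, 113 and 98.4 FPKM.

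Genes around the factors were read from 4 lists holding 108 genes, of which 88 were tested. At 3 d, 49 of the 88 were called, 5 higher and 44 lower, at 6 d 42 were called, 2 higher and 40 lower, and at 9 d 45 were called, all lower. These are 55.7%, 47.7% and 51.1% of the 88, beside 23.3%, 11.4% and 10.9% of all tested mRNAs, shares against which the counts of each list are to be read. The lists were chosen with earlier results of these data known, so this contrast is a description and not a test. A gene counted in a list had a row of its own.

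The first list holds relatives and partners of the factors, such as the E proteins they pair with, other MEF2 proteins and coactivators. Of its 20 tested genes, 1 was higher and 4 lower at 3 d, 2 higher and 1 lower at 6 d, and 3 lower at 9 d. The 5 of 20 called at 3 d are near the share of all tested mRNAs. Its median log2 fold change was -0.44, -0.40 and -0.65 in that order, and its summed level was 3121 to 4007 FPKM over the 0 d libraries and 1310 to 2746 FPKM over the later ones. Without MEF2A the sum was 1261 to 2092 FPKM over the 0 d libraries and 525.0 to 1651 FPKM over the later ones, ranges that overlap. TCF12, an E protein that pairs with MYOD1, had day means of 32.02 ± 1.18, 6.27 ± 0.358, 19.2 ± 0.680 and 16.1 ± 0.925 FPKM (SD, n = 3), and fell by 2.34 on the log2 scale at 3 d (adjusted p = 1.89e-09). MEF2A, the most abundant, went from 1946 to 802.7 FPKM at 3 d and fell by 1.28 on the log2 scale (adjusted p = 4.61e-08). Conversely, SMARCD3, a chromatin remodelling subunit that works with MYOD1, rose at 6 d from 7.01 ± 0.274 to 18.5 ± 0.693 FPKM (SD, n = 3; log2 fold change 1.39, adjusted p = 8.89e-07), and was 6.46 FPKM at 9 d.

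Some other called genes of this list are named here after their values were seen. At 3 d, TEAD4 (-1.74) and EYA2 (-1.14) were lower and KAT2B (1.16) was higher. EYA4 was lower at 9 d (-1.22). EYA2, whose day means did not exceed 0.98 FPKM, was higher at 6 d (1.35) and lower at 9 d (-1.22), and none of its 3 calls was kept with a pseudocount of 1.

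The inhibitors of the factors did not move as a block. Of 19 tested genes, 4 were higher and 5 lower at 3 d, 2 were lower at 6 d and 2 lower at 9 d, with medians of -0.05, -0.53 and -0.36. The 3 d median turned to 0.03 after rescaling, and the summed level of the list was 1130 to 1384 FPKM over the 0 d libraries and 892.9 to 1517 FPKM over the later ones. Without BHLHE40 the sum was 646.6 to 717.8 FPKM at 0 d and 831.2 to 984.9 FPKM at 3 d. That remainder was 516.5 to 614.7 FPKM at 6 d and 358.4 to 530.2 FPKM at 9 d. ID1, which binds E proteins and keeps them from the myogenic factors, rose at 3 d from 5.79 ± 0.667 to 25.8 ± 1.68 FPKM (SD, n = 3; log2 fold change 2.14, adjusted p = 4.89e-08), and its levels were 5.93 FPKM at 6 d and 3.54 FPKM at 9 d. BHLHE40, a repressor and the most abundant of the list, had 561.2, 65.9, 430.1 and 904.9 FPKM in order of day, and fell by 3.09 on the log2 scale at 3 d (adjusted p = 8.42e-08).

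HDAC9, a deacetylase that represses MEF2 proteins, was 7.46, 2.73 and 7.83 FPKM at 0 d and 0.10, 0.23 and 0.35 FPKM at 3 d, where it fell by 4.16 (adjusted p = 8.46e-05). Its libraries at 6 d held 1.75, 1.51 and 5.46 FPKM and those at 9 d 9.47, 9.61 and 9.23 FPKM, and neither day was called. Named after their values were seen, HEYL (-1.74), HES1 (-1.47) and MSC (-1.38) were also lower at 3 d, and HEY1 (2.02), HDAC4 (1.38) and SNAI1 (1.06) higher. The means of HEYL (0.363 and 0.0367), HES1 (0.533 and 0.127) and SNAI1 (0.38 and 0.90 FPKM at 0 d and 3 d) were low, and with a pseudocount of 1 HEYL (-0.39), HES1 (-0.44), MSC (-0.70) and SNAI1 (0.46) were not called. ID3 and HEYL were the pair called lower at 6 d (-1.03 and -1.60) and at 9 d (-1.51 and -1.71). A pseudocount of 1 ended these calls except that of ID3 at 9 d. After rescaling, ID3 was not called at 6 d, and the list had 1 gene higher and 1 lower there.

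Genes of the satellite cell and myoblast surface and of fusion were called in 1 direction only. Of 18 tested, 13 were lower at 3 d, 12 at 6 d and 13 at 9 d, none was called higher, and the medians were -1.42, -1.62 and -1.72. After rescaling, 1 of them was called higher at 3 d, and with a pseudocount of 1 those lower numbered 12, 10 and 12. MYMX, a small membrane protein needed for myoblast fusion, had 7.09 ± 0.215, 2.34 ± 0.176, 1.45 ± 0.0321 and 0.787 ± 0.156 FPKM in order of day (SD, n = 3) and fell by 3.03 on the log2 scale at 9 d (adjusted p = 9.04e-08).

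MYMK, the partner of MYMX in fusion and the most abundant of the list, held 542.9, 1146 and 800.2 FPKM at 0 d, 300.4, 359.9 and 359.9 FPKM at 3 d, 261.2, 249.1 and 252.0 FPKM at 6 d, and 215.9, 180.5 and 238.0 FPKM at 9 d. No later library reached the lowest 0 d library. MYMK fell by 1.23 at 3 d (adjusted p = 0.001), fell by 1.64 at 6 d and fell by 1.91 at 9 d. The 3 d call was lost without 0 d replicate 2 (-0.96), with an adjusted p of 7.02e-05 to 0.0137 over the alternatives.

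Integrin alpha 7 (ITGA7), the laminin receptor of muscle cells, had 124.5, 22.7, 40.0 and 28.9 FPKM in order of day and fell by 2.45 at 3 d (adjusted p = 2.16e-10). MET, the receptor for hepatocyte growth factor on satellite cells, fell by 2.92 at 3 d (adjusted p = 1.28e-08), from 24.6 to 3.17 FPKM. M-cadherin (CDH15) had 5.79, 2.28, 1.28 and 1.01 FPKM in order of day and fell by 2.42 at 9 d (adjusted p = 8.39e-07). Desmin (DES), an intermediate filament also found in smooth muscle, had day means of 393.2, 138.0, 314.1 and 206.7 FPKM. It fell by 1.51 at 3 d (adjusted p = 6.44e-08), and its log2 fold changes of -0.32 at 6 d and -0.93 at 9 d did not reach the fold threshold.

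Muscle fibre genes, the contractile and metabolic targets of the factors, form the longest list. Of 32 tested, 23 were lower at 3 d, 26 at 6 d and 28 at 9 d, and none was called higher on any of these days, with or without rescaling. The genes called lower numbered 23, 24 and 25 after rescaling and 19, 22 and 23 with a pseudocount of 1. The medians were -1.77, -1.76 and -1.60, and after rescaling -1.69, -1.59 and -1.40. Summed over the list, the level was 2923, 2911 and 2985 FPKM in the 0 d libraries, 1013, 1130 and 1114 at 3 d, 865.4, 780.7 and 846.4 at 6 d, and 945.2, 910.8 and 1020 FPKM at 9 d. ACTC1 was its most abundant gene, with a log2 fold change of -0.85 at 3 d, and fell by 1.90 at 6 d (adjusted p = 2.06e-08) and fell by 1.97 at 9 d (adjusted p = 1.83e-08).

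The fibre genes named next had their lowest day mean at 3 d, a grouping made after the values were seen, and were tested only against 0 d. Muscle creatine kinase (CKM) held 132.1, 135.7 and 130.3 FPKM at 0 d, 2.51, 5.05 and 2.28 FPKM at 3 d, 19.2, 10.9 and 10.1 FPKM at 6 d, and 29.1, 23.2 and 27.7 FPKM at 9 d. Every 3 d library of CKM lay below every library of the other days, and CKM fell by 5.39 at 3 d (adjusted p = 2.01e-07), fell by 3.36 at 6 d and fell by 2.32 at 9 d. The slow myosin light chain MYL2 had 38.0, 1.16, 13.3 and 13.2 FPKM in order of day and fell by 4.92 at 3 d (adjusted p = 6.12e-11), and the slow myosin heavy chain MYH7 had 75.0, 3.31, 21.6 and 25.4 FPKM and fell by 4.47 (adjusted p = 1.28e-10). MYL3 was 2.24, 2.39 and 2.80 FPKM at 0 d, was listed at 0 in all 3 d libraries, and had means of 0.493 at 6 d and 0.50 FPKM at 9 d. MYOM2, a protein of the M band, had 114.7, 15.1, 20.6 and 25.0 FPKM and fell by 2.92 at 3 d (adjusted p = 1.52e-08).

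For a further group, also formed after the values were seen, the lowest day mean was at 6 d or 9 d, and those late days were not tested against each other here. The calcium release channel RYR1 had 57.0, 35.5, 10.3 and 14.1 FPKM in order of day, with a log2 fold change of -0.68 at 3 d, and fell by 2.46 at 6 d (adjusted p = 2.62e-08). The calcium pump ATP2A1 had 40.0, 28.8, 10.2 and 8.22 FPKM, with a log2 fold change of -0.47 at 3 d, and fell by 2.27 at 9 d (adjusted p = 1.84e-08). Embryonic myosin (MYH3) had 17.6, 5.65, 4.40 and 4.57 FPKM and fell by 1.97 at 6 d (adjusted p = 2.90e-08). CACNA1S, the voltage sensor that opens RYR1, had 2.15, 0.917, 0.50 and 0.59 FPKM and fell by 1.91 at 6 d (adjusted p = 3.95e-07). Its calls at 3 d (-1.15) and 9 d (-1.71) were lost with a pseudocount of 1 (-0.72 and -0.99).

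**Figure D3:**
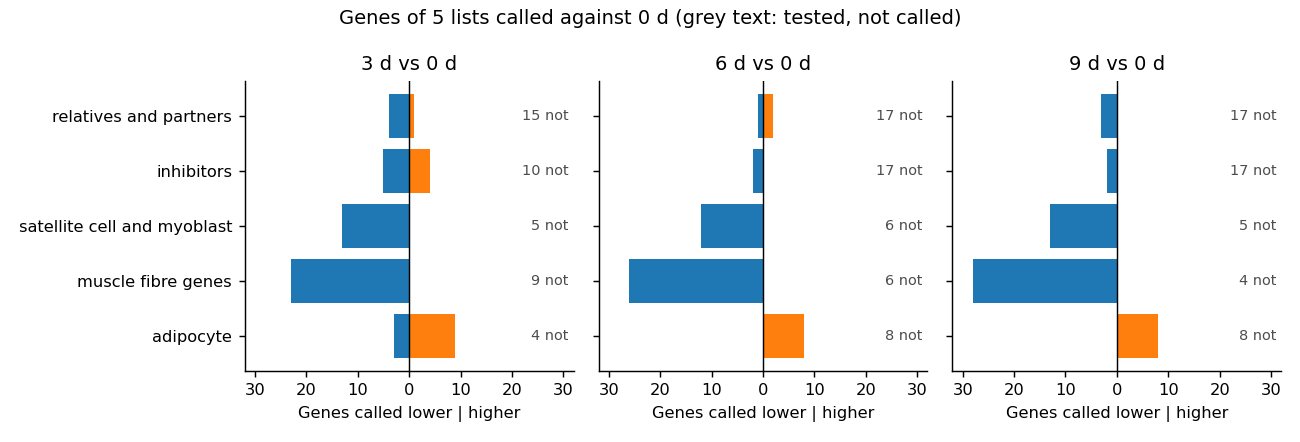
Number of genes (horizontal axes) called lower (bars left of 0) and higher (bars right of 0) against 0 d in 5 gene lists, in a panel each for 3 d, 6 d and 9 d, with the number tested and not called as text. Muscle fibre genes had 23, 26 and 28 genes lower and 0 higher, and adipocyte genes had 9, 8 and 8 higher and 3, 0 and 0 lower.

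The labelled cell type was checked against markers, and lists of other cells that such a culture could hold were read beside the factors. In the methods, cells that had not attached soon after plating were removed, and which cell types this step reduced was not tested. All 16 adipocyte genes with a row of their own were tested (PPARG and PLIN1 share rows with other genes and were not counted). At 3 d 9 were higher and 3 lower, at 6 d 8 higher and none lower, and at 9 d 8 higher and none lower, with medians of 1.2, 1.05 and 0.94. With a pseudocount of 1, 5 genes were called higher on each of these days and 1 lower at 3 d. Their summed level was 1560, 1636 and 1680 FPKM at 0 d, 3125, 3631 and 3491 at 3 d, 2059, 2272 and 2104 at 6 d, and 2095, 2050 and 1827 FPKM at 9 d. FASN, the fatty acid synthase, made up most of it, with 1527, 2970, 1829 and 1766 FPKM in order of day. Without FASN the sum was 91.5, 109.0 and 93.9 FPKM at 0 d and 452.6, 412.0 and 470.7 at 3 d, 302.3, 335.3 and 310.3 at 6 d, and 213.8, 222.6 and 238.8 FPKM at 9 d.

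DGAT2, which makes triglyceride, was 0.04, 0 and 0.18 FPKM at 0 d and had means of 21.8, 8.27 and 9.25 FPKM at 3 d, 6 d and 9 d, all called higher (3 d adjusted p = 3.35e-08). Leptin (LEP) was 2.34 FPKM at 0 d, was 0, 0.21 and 0 FPKM in the 3 d libraries, and had means of 8.02 at 6 d and 20.5 FPKM at 9 d. LEP was called lower at 3 d (-4.06) and higher at 9 d (3.06). Its call at 6 d (1.69) was lost with a pseudocount of 0.01. Named after their values were seen, AGPAT2 (-1.05) and CIDEA (-1.03) were the other adipocyte genes called lower at 3 d, and neither was called with a pseudocount of 1 or after rescaling, where 10 genes were higher and 1 lower.

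Among 15 tested fibroblast and fibro-adipogenic progenitor genes, 5 were higher and 5 lower at 3 d, 4 higher and 3 lower at 6 d, and 3 higher and 4 lower at 9 d. Their medians were -0.59, -0.14 and 0.35, and the 6 d median turned to 0.03 after rescaling. Rescaling also left 2 genes lower at 6 d and 2 at 9 d, and with a pseudocount of 1 those lower numbered 4, 1 and 2 in order of day. PDGFRA, the receptor that defines these progenitors, had 159.6, 929.5, 161.9 and 202.9 FPKM in order of day and rose by 2.54 on the log2 scale at 3 d (adjusted p = 2.51e-10). COL3A1, the most abundant gene of the list, had 105800, 126600, 96300 and 170800 FPKM, and the sum of the list lay between 126700 and 133800 FPKM at 0 d, 171700 and 180000 at 3 d, 144100 and 148600 at 6 d, and 225400 and 239000 FPKM at 9 d. CD34, at 0.63 FPKM at 0 d, was called lower on all 3 days, calls that a pseudocount of 1 ended.

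Of 13 tested smooth muscle and pericyte genes, 3 were higher and 8 lower at 3 d, 4 higher and 3 lower at 6 d, and 1 higher and 4 lower at 9 d, where rescaling left 3 of the 4. Their medians were -1.51, 0.44 and -0.57. The list's sum was 3204, 3252 and 3408 FPKM at 0 d, 1069, 1187 and 1082 at 3 d, 2844, 3012 and 2997 at 6 d, and 1903, 1768 and 1878 FPKM at 9 d. Without ACTA2 the sum was 1562 to 1632 FPKM at 0 d and 1044 to 1159 FPKM at 3 d. That remainder was 1341 to 1383 FPKM at 6 d and 1200 to 1308 FPKM at 9 d. ACTA2, smooth muscle actin and the most abundant, had 1697, 26.8, 1583 and 597.5 FPKM and fell by 5.98 at 3 d (adjusted p = 7.22e-12). KCNJ8, a potassium channel of pericytes, had 7.81, 485.0, 37.0 and 22.04 FPKM and rose by 5.96 at 3 d (adjusted p = 9.71e-10).

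Markers of the satellite cell and myoblast list, read as a cell type, summed to 1538, 2194 and 1894 FPKM at 0 d, 745.4, 842.7 and 809.0 at 3 d, 1001, 1060 and 997.0 at 6 d, and 766.6, 673.0 and 786.1 FPKM at 9 d. CALCR, a marker of resting satellite cells, was listed at 0 in all libraries. The muscle fibre, satellite cell and smooth muscle sums were all highest at 0 d, the day with the most MYOD1 and MYOG. So were the sums of relatives and partners (mean 3540 FPKM at 0 d) and of endothelial genes (mean 7.48 FPKM at 0 d). The mean smooth muscle sum was 3290 FPKM at 0 d and 2950 FPKM at 6 d, the day with the lowest mean of MYOD1. The part of these cells in the levels of the factors was not tested.

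**Figure D4:**
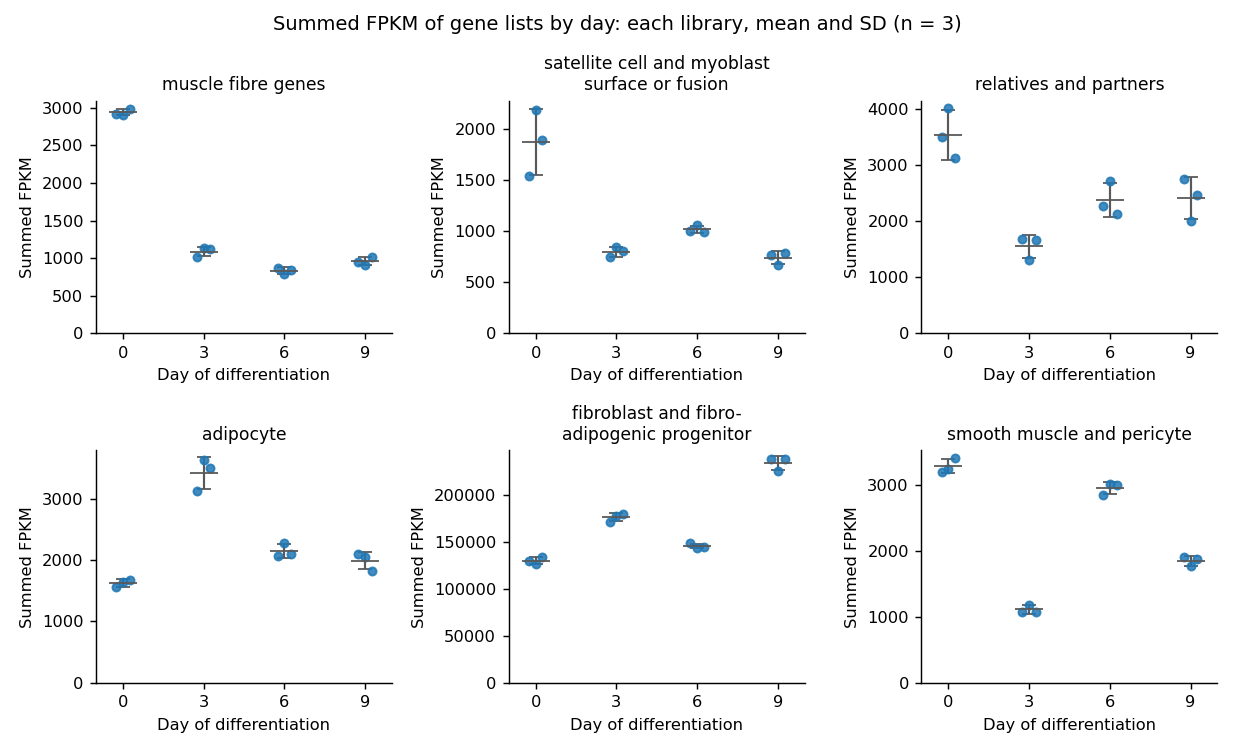
Summed FPKM of the genes of 6 lists (vertical axes) by day (horizontal axes), with a point for each library and the mean and SD of 3 libraries. The muscle fibre sum was 2911 to 2985 FPKM at 0 d and 780.7 to 1130 FPKM on the later days.

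Markers of other cells were mostly scarce. Of 12 endothelial genes, 5 were below 0.1 FPKM in all libraries (EMCN, ESAM, KDR, PECAM1 and TIE1), 5 were tested, and the list's sum was 3.91 to 7.74 FPKM over the libraries. FLT1, its most abundant, fell by 3.14 at 3 d (adjusted p = 5.40e-10), and 1 gene each was called at 6 d, CLDN5 (-1.30, named after its values were seen), and at 9 d, ERG (1.21), both lost with a pseudocount of 1. The endothelial medians were -0.33, -0.15 and -0.54, and the 6 d median turned to 0.01 after rescaling.

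Of 12 blood and immune genes, 7 were below 0.1 FPKM in all libraries, among them PTPRC, and 4 were tested, with 3 higher at 3 d, 1 at 6 d and 2 at 9 d and medians of 1.47, 0.49 and 0.89. CD163, a scavenger receptor, made up most of the sum at 3 d. It was 0.59, 0.79 and 0.57 FPKM at 0 d, 203.7, 113.7 and 85.2 FPKM at 3 d, 28.3, 26.4 and 13.0 FPKM at 6 d, and 3.97, 2.72 and 2.98 FPKM at 9 d, and rose by 7.40 on the log2 scale at 3 d (adjusted p = 6.92e-08). Named after their values were seen, CD14 (1.71) and CSF1R (1.23) were also higher at 3 d and CD14 at 9 d (1.59), but with a pseudocount of 1 only CD14 at 3 d was called among these. The lowest and highest sums of the list were 1.73 and 2.05 FPKM at 0 d, 88.9 and 207.2 at 3 d, 14.9 and 30.2 at 6 d, and 5.37 and 6.81 FPKM at 9 d.

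Of 10 neural crest and Schwann genes, 6 were below 0.1 FPKM in all libraries, among them SOX10, and 4 were tested. S100B, the most abundant, was 4.37, 11.1, 3.80 and 2.92 FPKM in order of day and rose at 3 d (1.32, adjusted p = 8.60e-07). ERBB3, named above for its likeness to MYOG, fell by 2.34 at 6 d (adjusted p = 1.01e-07), and NGFR, named after its values were seen, was lower on all 3 days, though on none with a pseudocount of 1. The medians were -0.52, -0.68 and -0.90, and the lowest and highest sums were 15.3 and 16.3 FPKM at 0 d, 17.2 and 18.5 at 3 d, 7.84 and 11.1 at 6 d, and 6.30 and 7.14 FPKM at 9 d.

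None of the 12 proliferation genes was called by limma on any of the 3 days, with unadjusted p under 0.05 for 6 at 3 d, 2 at 6 d and 8 at 9 d. Their medians were 0.41, -0.01 and -0.26, and the 6 d median turned to 0.16 after rescaling. The summed level spanned 145.0 and 179.2 FPKM at 0 d, 187.0 and 207.9 at 3 d, 155.3 and 174.8 at 6 d, and 119.6 and 125.5 FPKM at 9 d, with PLK1 the most abundant at 62.9, 71.9, 75.3 and 47.5 FPKM.

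The muscle miRNAs miR-1, miR-206, miR-133a and miR-133b give a readout from separate small RNA libraries, since their genes are known targets of the myogenic factors. Their mature sequences are shown because they fall into pairs that share a seed. Capitals mark the seed, bases 2 to 8 from the 5′ end, as the deposited table gives the sequences with T.
miR-1: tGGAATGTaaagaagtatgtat
miR-206: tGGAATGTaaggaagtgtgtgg
miR-133a: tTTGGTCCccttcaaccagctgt
miR-133b: tTTGGTCCccttcaaccagctat
miR-1 and miR-206 share the seed and differ at 4 positions (A11G, A17G, A21G and T22G, with the miR-1 base first and positions counted from the 5′ end). miR-133a and miR-133b share the seed and differ at 1 position (G22A, with the miR-133a base first).

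The hairpins lie in pairs. On the ARS-UCD1.2 coordinates of the deposited table, miR-206 (chromosome 23, 24567202 to 24567293) and miR-133b (chromosome 23, 24571300 to 24571404) start 4.1 kb apart. miR-1 and miR-133a each have a hairpin on chromosome 24, with starts 3.3 kb apart, and on chromosome 13, with starts 10.2 kb apart. The rows of both loci hold equal estimated counts for miR-1, for miR-133a and for miR-133a-5p, so 10 rows hold 7 distinct sequences, the other 3 being 5p arms. Values of these 3 miRNAs are given per locus, and their levels are not compared with those of the single-locus miR-206 and miR-133b. Both miR-133a and miR-133b have fractional counts, and how reads that match both were divided is not stated.

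Of the 7 sequences, none was called by edgeR at 3 d, where 6.05% of the 1174 tested miRNA rows were called, 0 had an unadjusted p under 0.05, and DESeq2 called 0 with 1 under 0.05 unadjusted. At 6 d 2 were called, both lower, where 11.5% of all were called, and at 9 d 3 were called, all lower, where 19.5% of all were called. The median log2 fold change of the 7 was -0.25, -1.14 and -1.41, and of all tested rows 0.00, 0.23 and 0.00. Without 0 d replicate 3 the 6 d count was 1, and without 9 d replicate 2 the 9 d count was 1.

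miR-206, the skeletal muscle form of the miR-1 family, is given in reads relative to library size (CPM, scaled by TMM). It was 16811, 11632 and 32043 CPM at 0 d, 13851, 13448 and 18090 at 3 d, 7483, 6533 and 8002 at 6 d, and 7534, 7965 and 11464 CPM at 9 d. All 6 d and 9 d libraries lay below all 0 d libraries, 0 d replicate 3 lay far above the others, and 3 d overlapped 0 d. miR-206 fell by 1.46 on the log2 scale at 6 d (edgeR adjusted p = 0.00481) and fell by 1.17 at 9 d (adjusted p = 0.0126), and its value at 3 d was -0.41 (adjusted p = 0.427). Without 0 d replicate 3 both calls were lost (-0.95 and -0.66) and the 3 d value was 0.09, and the 9 d call was also lost without 9 d replicate 1 (-1.05) or 9 d replicate 2 (-1.09).

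miR-133b was 7722, 6541 and 7606 CPM at 0 d, 5621, 5459 and 5531 at 3 d, 3840, 3985 and 2098 at 6 d, and 2292, 2355 and 2539 CPM at 9 d. The 3 d libraries lay below those of 0 d, those of 6 d and 9 d lay below both, and 6 d replicate 3 was at the level of 9 d. It fell by 1.14 at 6 d (adjusted p = 0.00211) and fell by 1.61 at 9 d (adjusted p = 1.09e-04), with a value of -0.40 at 3 d (adjusted p = 0.29). The 6 d call was lost without 6 d replicate 3 (-0.90).

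miR-133a, which differs from miR-133b by the single base given above, was, at each of its 2 loci, 3902, 3702 and 2716 CPM at 0 d, 4286, 4384 and 4205 at 3 d, 3457, 3477 and 4045 at 6 d, and 2887, 2887 and 3075 CPM at 9 d. The 0 d libraries overlapped those of 6 d and 9 d and lay below those of 3 d. Its log2 fold changes were 0.32 (adjusted p = 0.283), 0.09 (adjusted p = 0.767) and -0.22 (adjusted p = 0.354), none called. The sign at 6 d turned in DESeq2 (-0.07), with at least 120 counts (-0.02) and without 0 d replicate 3 (-0.06). Whether miR-133a and miR-133b differed in their change was not tested.

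miR-1, at each of its 2 loci, had 314, 269 and 428 CPM at 0 d, 367, 358 and 322 at 3 d, 147, 109 and 397 at 6 d, and 138, 118 and 125 CPM at 9 d. The 9 d libraries lay below all 0 d and 3 d libraries, and 6 d replicate 3 lay far above the other 6 d libraries. It fell by 1.41 at 9 d (adjusted p = 0.0141), and its values were 0.05 at 3 d (adjusted p = 1) and -0.63 at 6 d (adjusted p = 0.28). The 9 d call was lost without 9 d replicate 2 (-1.36) or 9 d replicate 3 (-1.40), 6 d was called without 6 d replicate 3 (-1.40), and the 3 d sign turned in DESeq2 (-0.05) and without 0 d replicate 2 (-0.09).

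**Figure D5:**
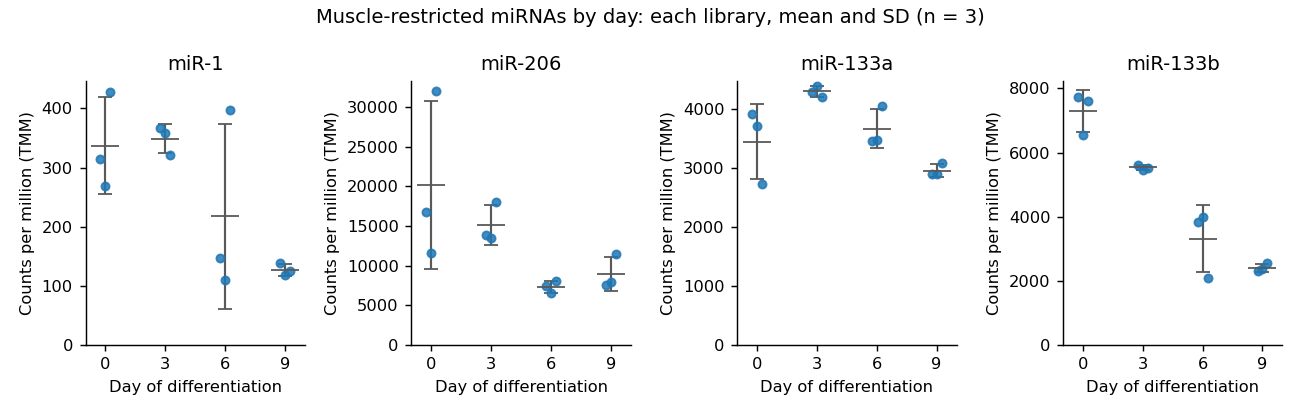
TMM-scaled CPM of miR-1, miR-206, miR-133a and miR-133b (vertical axes, from 0) by day of differentiation (horizontal axes), with a point for each library and the mean and SD of 3 libraries. miR-133b was 6541 to 7722 CPM at 0 d and 2292 to 2539 CPM at 9 d, and miR-133a, plotted like miR-1 per locus, was 2716 to 3902 and 2887 to 3075 CPM.

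The 5p arms were rare. miR-206-5p had 5, 9 and 0 reads at 0 d and was listed at 0 in all 9 d libraries, and miR-133b-5p had 18, 15 and 19 reads at 0 d and 0, 0 and 10 at 9 d. Neither was called, although miR-133b-5p was called lower at 9 d without 9 d replicate 3. miR-133a-5p had 26 to 88 reads per library at each of its 2 loci.

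Circular RNAs were listed in 14070 rows by host gene, and 0 of them had one of the 7 genes as host. Among the surrounding genes, relatives and partners gave 31 rows from 11 genes, muscle fibre genes 19 rows from 11 genes, satellite cell and myoblast genes 14 rows from 5 genes, and inhibitors 10 rows from 5 genes.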

How the data were processed

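For alignment and assembly of the paired-end reads, the processing notes of the authors name HISAT2 (version 2.0) and StringTie (version 1.3.0), and the methods give another HISAT2 version. The deposited mRNA table gives FPKM per library. The authors deposited miRNA raw values as estimated counts, which can be fractional, beside normalised signal values that were not used here. The deposited circRNA table gives the junction read count of each library. The processing notes also name Bowtie (version 0.12.2).

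Rows with a mean of at least 0.1 FPKM were fitted as log2(FPKM + 0.1) in limma 3.58.1 (lmFit, contrasts.fit, eBayes with trend), with 1 mean per day over all 12 libraries and 6 comparisons. Calls needed a log2 fold change beyond 1 in size and, by the method of Benjamini-Hochberg within each comparison, an adjusted p below 0.05. Rounded miRNA counts of rows with at least 10 counts were tested in edgeR 4.0.16 (TMM, quasi-likelihood), with DESeq2 1.42.0 as an alternative. The scripts were tested on simulated data. R 4.3.3, Python 3.11.15, pandas 2.3.3, NumPy 2.4.6, SciPy 1.17.1 and Matplotlib 3.10.9 were used. circRNA counts were not tested.

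Named by rule were the listed factors, and from each gene list the called gene with the largest rise, the called gene with the largest fall and the most abundant gene. To these were added up to 8 genes of the myogenic lists per comparison by adjusted p, and the 5 mRNAs with the highest r to MYOD1, MYF5 and MYOG. The factors and the lists were chosen with earlier results of these data known. DES and HEYL are in a pair of lists each. All 7 symbols were found in RefSeq. Alternatives were other pseudocounts, filters, scalings, fits of fewer libraries, a replicate block, and leaving out each library in turn.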

Additional observations from a re-analysis of the deposited data

How the results depend on the processing

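The fold changes of the 6 tested factors gave 36 values, and of 720 recomputed values 690 kept direction and call, 17 lost a call, 5 gained one and 8 turned sign. The 21 miRNA values gave 351, with 336 unchanged, 7 lost, 2 gained and 6 turned. Among 73 called values of other named genes, 1445 of 1453 were unchanged and 8 lost the call. Other myogenic genes called in any comparison with 0 d numbered 62, and 52 to 64 under the alternatives. In 9 d against 3 d the factors called numbered 2, with 1 for a pseudocount of 1, 0 after rescaling by the median ratio, and 0 to 2 on leaving out a library. In 6 d against 3 d that range was 1 to 2, for muscle miRNAs at 6 d against 0 d 1 to 2, and at 9 d against 0 d 1 to 3. Of the factor counts against 0 d, that of 6 d moved between 2 and 4 when a library was left out. Those of 3 d and 9 d did not fall below their main counts, and their highest values were 3 and 4. Sign turned for SIX4 at 9 d after rescaling (0.12), for miR-1 at 3 d in DESeq2 (-0.05) and for miR-133a at 6 d in DESeq2 (-0.07) and with at least 120 counts (-0.02). On leaving out a library, log2 fold changes that crossed 0 ranged from -0.02 to 0.37 for MYOD1 in 9 d against 6 d, -0.56 to 0.09 for MYF6 in 3 d against 0 d, -0.83 to 0.10 for MEF2C in 6 d against 0 d, -1.16 to 0.32 for MEF2C in 9 d against 3 d, -0.73 to 0.07 for SIX4 in 6 d against 0 d, -0.16 to 0.64 for SIX4 in 9 d against 6 d, -0.09 to 0.26 for miR-1 in 3 d against 0 d, -0.06 to 0.16 for miR-133a in 6 d against 0 d and -0.69 to 0.09 for miR-206 in 3 d against 0 d. The cause was not tested. Between libraries of the same replicate number on different days, r of the deviations from day means was -0.0757 to 0.0947 over 18 pairs. Of the 12 libraries, 6 were closest to their own number. These values cannot show whether the cultures were paired. With replicate number as a block the factors called were 2, 3, 3, 1, 2 and 0 in the 6 comparisons. Summing the rows of a gene name gave no value, since each factor has 1 row. Summing miRNA rows of one mature sequence was chosen after seeing the data and changed no call. For marker genes of other cells, the pseudocount of 1 and the rescaling were also chosen after seeing the data.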
